A study of Mus musculus with 6 samples.

Results

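The 91 genes described here encode the nuclear part of the respiratory chain in mouse embryonic stem cells whose translation was blocked with cycloheximide. The rule reads the symbol: every gene of the count tables whose name starts with Nduf, Cox4 to Cox8, Uqcr or Atp5, or is Sdha, Sdhb, Sdhc or Sdhd. They are 91 of 17485 genes in the tables, and 88 of them were among the 12755 genes with enough counts to test. Cox4i2, Cox8c and Ndufs5 were not tested, with at most 13, 3 and 1 counts in any library. For Ndufs5 36% of the transcript's 31-base words occur in transcripts of other genes, so its count is uncertain.

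The respiratory chain lies in the inner mitochondrial membrane. Complexes I and II pass electrons from NADH and succinate to ubiquinone, complex III passes them to cytochrome c, and complex IV passes them to oxygen. Complexes I, III and IV pump protons across the membrane, and ATP synthase uses the returning protons to make ATP. Most subunits come from nuclear genes, are made in the cytoplasm and are imported, while a small set is encoded on the mitochondrial chromosome. Cycloheximide stops elongation on cytoplasmic ribosomes.

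Polyadenylated RNA was sequenced from E14 mESCs (129/Ola background), a mouse embryonic stem cell line, grown in serum with leukaemia inhibitory factor on gelatin. The treated cells received 250 µg/mL cycloheximide in 0.007% ethanol, beginning 24 h after seeding, for 3 h (2 libraries) or for 6 h (2 libraries). The control cells received ethanol alone for 9 h (2 libraries), so neither treated group has a vehicle control of its own duration. The sources used here do not say that the 2 libraries of a group came from separate cultures, so the p-values below measure the spread between these libraries, which may be technical.

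The libraries held 9385447 to 27351079 counts, and the 6 h libraries were the deepest. The mitochondrial chromosome took 24.7% and 24.9% of control counts, 19.6% and 18.9% at 3 h, and 17.5% and 16.6% at 6 h. Its part in the differences between groups was not tested beyond refitting without those genes. All 10 listed stem cell markers were present, with a summed level of 6950 to 7120 CPM (counts relative to the library's total) in control, 7970 to 8220 after 3 h and 5540 to 5720 after 6 h. The 6 primitive endoderm genes summed to 41.2 to 53.9 CPM in control, 50.1 to 50.9 at 3 h and 17.3 to 19.8 at 6 h. Among them Sox7 ran from 5.05 to 48.5 CPM over the 6 libraries, and no other gene passed 7.11 CPM. That sum mostly reflects Sox7 and does not show how the others moved. The 4 trophectoderm genes summed to 48.8 to 62.7, 45.4 to 46.2 and 36.5 to 38.5 CPM. The 5 fibroblast (feeder) genes in the tables summed to 7.93 to 10.1 CPM in control, 4.39 to 7.69 at 3 h and 3.07 to 6.17 at 6 h. For 3 genes of 2-cell-like cells the sums were 5.11 to 5.87, 2.2 to 3.24 and 1.34 to 2.67 CPM, and for 4 mesoderm genes 1.34 to 5.71, 3.36 to 3.81 and 2.38 to 2.97 CPM. Other sums also lean on a few genes and do not show how each gene moved. Over the 6 libraries Sox2 ran from 2280 to 3960 CPM, while Nanog, also a stem cell marker, ran from 3.86 to 10. Among trophectoderm genes Krt8 ran from 19.5 to 51.6 CPM and Cdx2 reached at most 0.122. Among fibroblast genes Thy1 ran from 1.84 to 7.82 CPM. The part of these cell types in the results below was not tested. In bulk RNA, fewer cells of a type and less RNA per cell cannot be told apart.

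Promoters of respiratory genes are known for binding sites of the transcription factors NRF1, GABPA (an ETS factor) and YY1. RefSeq promoters (GRCm38.p6, from 250 bases before to 50 after the start) were matched for 75 of the 91 genes. Among these, 24% held the NRF1 letters (GCGCA and GCGC with any 1 base between them) on either strand, against 10.7% of the 9471 matched promoters of tested genes and 4.78% of all 27026 promoters. The YY1 letters AANATGGC stood in 22.7%, against 9.04% of tested genes and 6.23% of all promoters. The ETS letters CCGGAAG stood in 21.3%, against 18.4% and 9.12%, and CCAAT in 45.3%, against 39.1% and 37.9%. TATAAA stood in 8%, against 6.75% and 14.2%. No overlap between the letters of different motifs was removed.

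The 250 bases before the start are printed for 3 members, 2 that fell and 1 that did not pass the test, to show how such promoters read. Capitals mark matches to the letters above, on either strand. Ndufs8 (chr19:3912775-3913024, minus strand) fell most among the core subunits and holds a YY1 match and 3 CCAAT matches. Ndufaf1 (chr2:119662835-119663084, minus strand) fell most among the assembly factors and holds an ETS match and, in reverse, CCAAT. Ndufaf4 (chr4:24897833-24898082, plus strand) had a higher level in both treated groups and holds an NRF1 match.
Ndufs8: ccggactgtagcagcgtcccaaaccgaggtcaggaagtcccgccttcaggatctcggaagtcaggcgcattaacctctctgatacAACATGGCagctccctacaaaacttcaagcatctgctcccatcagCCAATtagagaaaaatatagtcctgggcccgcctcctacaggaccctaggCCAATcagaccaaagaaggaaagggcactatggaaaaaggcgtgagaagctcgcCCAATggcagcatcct
Ndufaf1: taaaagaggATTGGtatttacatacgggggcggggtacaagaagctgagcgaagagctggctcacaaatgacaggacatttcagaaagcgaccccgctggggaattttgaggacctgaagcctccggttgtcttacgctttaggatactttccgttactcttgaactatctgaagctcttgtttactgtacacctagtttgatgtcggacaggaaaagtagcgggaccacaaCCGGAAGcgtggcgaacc
Ndufaf4: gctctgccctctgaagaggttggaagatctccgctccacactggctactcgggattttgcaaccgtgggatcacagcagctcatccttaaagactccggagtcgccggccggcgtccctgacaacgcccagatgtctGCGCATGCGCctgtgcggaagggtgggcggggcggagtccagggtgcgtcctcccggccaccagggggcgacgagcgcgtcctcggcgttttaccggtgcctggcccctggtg
These matches are letters in a window and not measured binding. The share with the NRF1 letters was 20.5% of the 44 matched members called lower at 6 h and 26.7% of the 30 tested members not called. For YY1 the shares were 25% and 20%, and for ETS 22.7% and 20%.

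On the TMM scale, the RNA of the respiratory genes fell in most members by 6 h of cycloheximide, and in no complex was a member called higher. Together the 91 genes summed to 19600 and 19180 CPM in the control libraries, 16300 and 16060 after 3 h, and 14830 and 13990 after 6 h, where CPM is scaled by edgeR's TMM factors. The 3 groups did not overlap. Relative to the control mean this was 83.4% ± 0.87 after 3 h and 74.3% ± 3.06 after 6 h (SD, n = 2 each). As shares of all counts, without the TMM factors, the members took 1.715% and 1.673% in control. They took 1.65% and 1.658% at 3 h, and 1.643% and 1.579% at 6 h, again without overlap but with a smaller fall. The size of the fall in the sum therefore depends on the scaling. Both treated groups are compared with the same 2 control libraries, so the values at 3 h and 6 h are not independent.

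**Figure D1:**
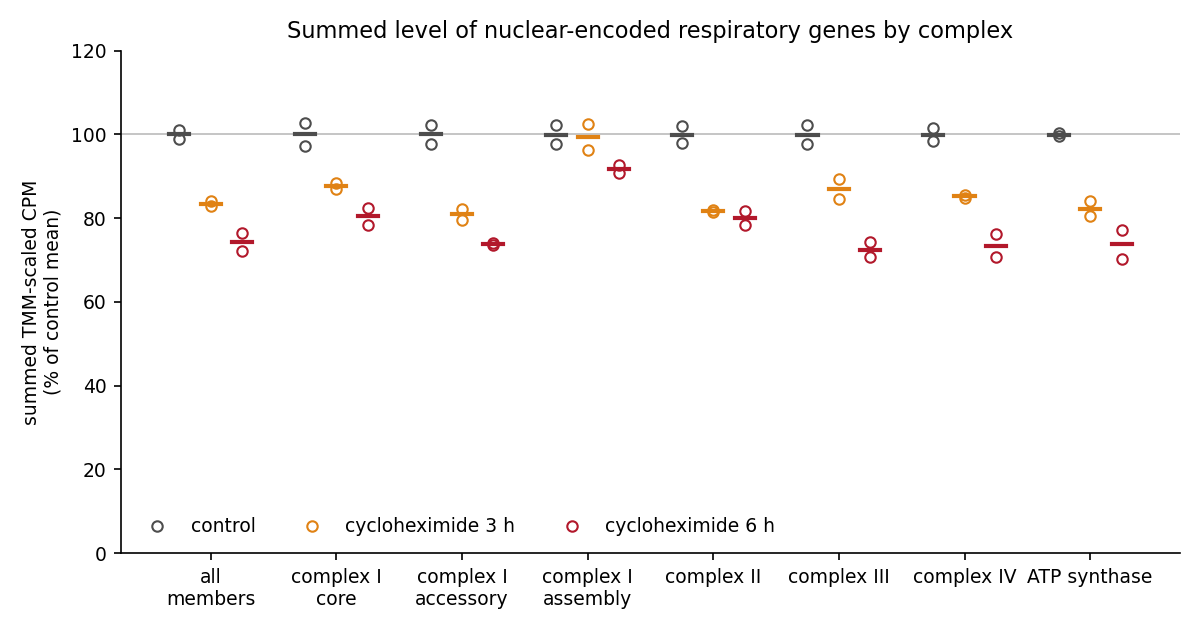
Summed level of the genes of each complex in every library (points; bars are means of 2 libraries), as TMM-scaled CPM in percent of the control mean, for control, 3 h and 6 h. All members together stood at 83.4% at 3 h and 74.3% at 6 h, while complex I assembly factors stood at 99.4% and 91.8%.

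A gene is called here when edgeR's quasi-likelihood test, adjusted over all tested genes by the Benjamini-Hochberg method, gives a p under 0.05. At 6 h against control 52 of the 88 tested members were called lower and 0 higher. Among all tested genes 14.3% were called lower and 14.8% higher at 6 h. The members are mostly abundant, with a median mean level of 104.5 CPM against 14.41 CPM over all tested genes, and abundant genes were called lower more often. Of the 1631 tested genes with a mean of at least 100 CPM, 42.1% were called lower and 8.95% higher, and 32 of the 48 members in that range were called lower. The median log2 fold change was -0.42 in those 48 members and -0.31 in the 1631 genes.

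At 3 h only 1 member, Ndufa12, was called lower by edgeR, and 0 were called higher; DESeq2 called 11 lower, beside 661 lower among its 1447 calls over all tested genes. At an unadjusted p under 0.05 edgeR counted 27 of the 88 members, beside 3149 of the 12755 tested genes. Among all tested genes 1.30% were called lower and 3.60% higher at 3 h. The median log2 fold change of the 88 members was -0.22 at 3 h and -0.42 at 6 h, beside 0.02 and 0.04 over all tested genes. The libraries of control and treated cells did not overlap, with the treated lower, for 60 members at 3 h and 73 at 6 h, against 24.8% and 31.2% of all tested genes. In 69 of 88 members the group means stood in the order control, 3 h, 6 h from high to low. The share of all tested genes in this order was not computed, so whether the count is particular to the members is not known. Of the tested genes with at least 100 CPM, 74.9% had a log2 fold change below 0 at 3 h and 76% at 6 h. Among the members in that range these shares were 93.8% and 97.9%.

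**Figure D2:**
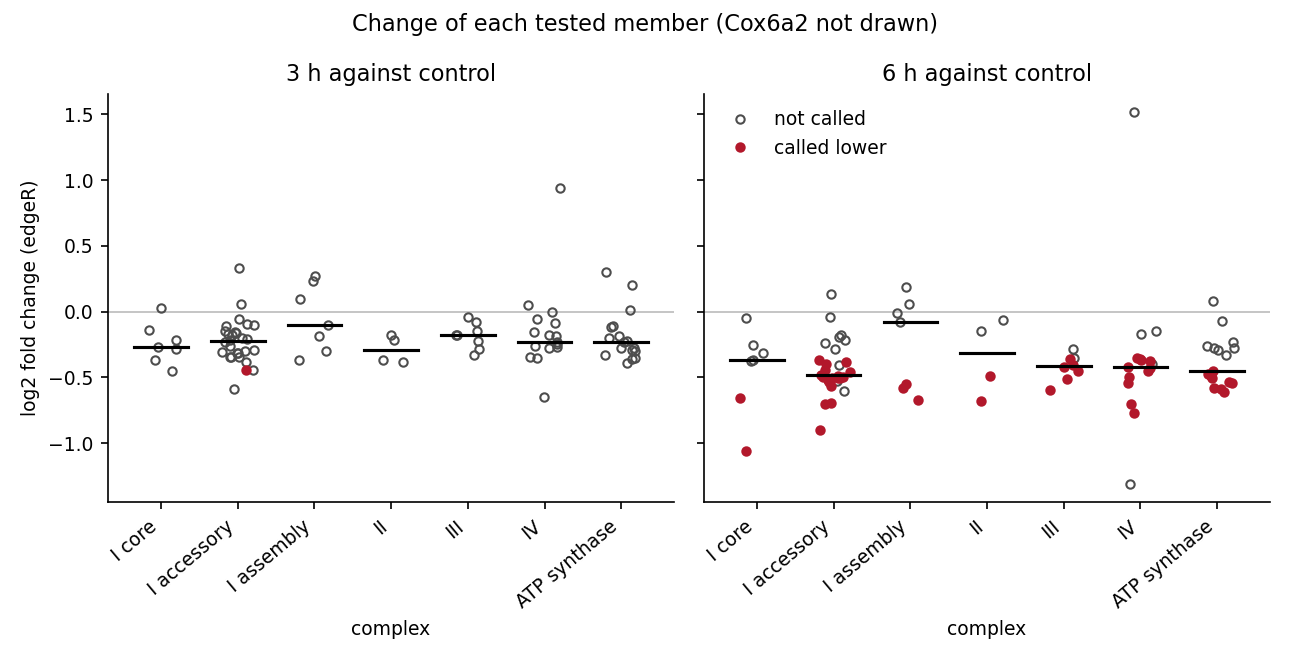
Log2 fold change of each tested member against control at 3 h (left) and 6 h (right), by complex, with called members filled; black bars are medians over all tested members of the complex. Cox6a2, with 0 counts at 6 h, is not drawn. At 3 h 1 member is called, and at 6 h 52 members are called (51 drawn), all lower.

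These counts depend on 2 libraries and on the scaling. Without 6 h replicate 2 the count of members called lower at 6 h was 7, and without 6 h replicate 1 it was 22. The call held in each of the 6 fits that left out 1 library for 6 members, Ndufs8, Ndufv2, Ndufa11, Cox5a, Cox6a2 and Atp5g1. Scaling by library size alone moved the median of all tested genes by 0.23 at 3 h and 0.36 at 6 h on the log2 scale, and the median of the members to 0.01 and -0.07. Then 4 members were called lower at 6 h (Ndufs8, Ndufa11, Cox5a and Cox6a2) and 1 higher (Ndufaf4), and at 3 h Ndufaf4 alone was called, higher. Of all tested genes called at 6 h, 11.8% were lower under that scaling and 49.2% under TMM. Under library size alone 46 members had a log2 fold change above 0 at 3 h and 30 at 6 h, against 11 and 5 under TMM. The median of the members minus that of all tested genes was -0.25 at 3 h and -0.47 at 6 h under both scalings. A change of scaling shifts all genes alike, so this difference stays the same by construction and does not test the result. Unless another scaling is named, all levels, folds and directions above and below are relative to the TMM scale.

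**Figure D3:**
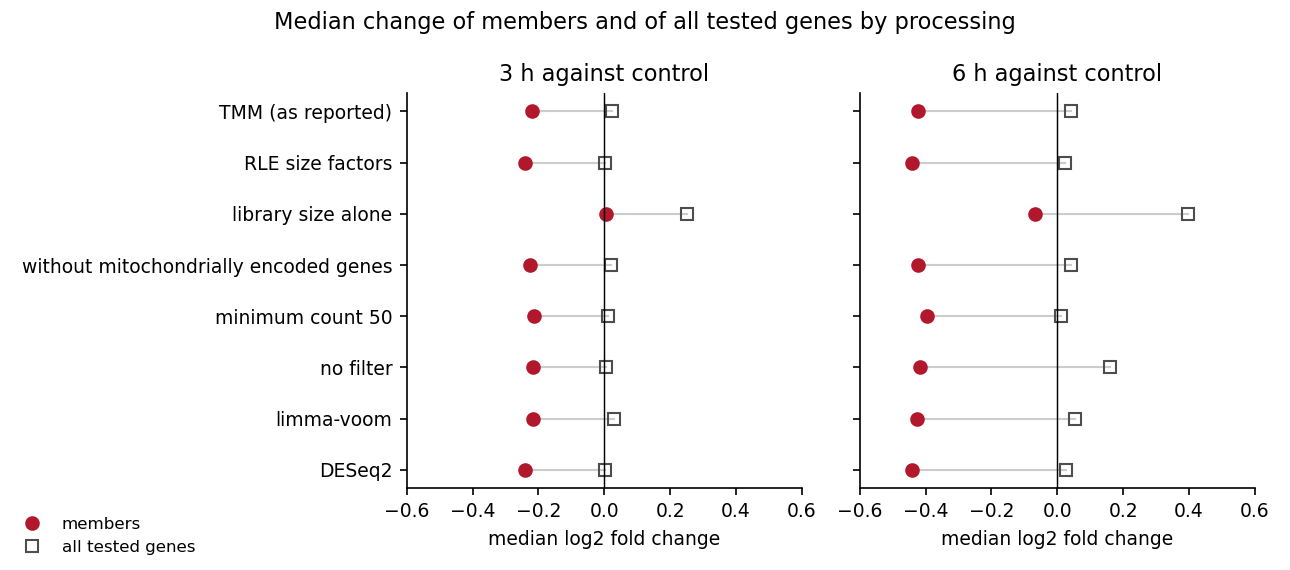
Median log2 fold change of the members (filled circles) and of all tested genes (open squares) at 3 h and 6 h against control under 8 ways of scaling, filtering or testing. Under library size alone both medians shift upward, to -0.07 for members and 0.40 for all tested genes at 6 h. The gap between them stays at 0.47 as under TMM, by construction, since a change of scaling shifts all genes alike.

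Complex I, the NADH dehydrogenase, is the largest of the complexes, and its nuclear core subunits carry the flavin and the iron-sulphur clusters through which electrons leave NADH. Of these 7 core subunits, 2 were called lower at 6 h and 0 at 3 h, and their median log2 fold change was -0.27 at 3 h and -0.37 at 6 h. Ndufs8, an iron-sulphur subunit close to the quinone site (gene at chr19:3908863-3912774, minus strand, GRCm38), had 21.3 and 28.7 CPM in control, 18.0 and 20.6 after 3 h, and 11.95 and 11.88 after 6 h. Both treated groups lay below both control libraries, and 6 h below 3 h. Ndufs8 fell by the later time, with a log2 fold change of -1.06 ± 0.19 (SE; edgeR adjusted p = 0.00577).

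Ndufv2, a subunit of the NADH-oxidising module, had 163.8 and 176.2 CPM in control, 126.6 and 122.3 after 3 h, and 105.5 and 110.7 after 6 h. The 3 groups did not overlap, and the drop from control to 6 h was -0.65 ± 0.11 (edgeR adjusted p = 0.00438). Ndufs1, the largest core subunit, showed no such order, with 226.7 and 264.5 CPM in control, 270.3 and 229.2 after 3 h, and 244.7 and 228.9 after 6 h. Its groups overlapped and its log2 fold change at 6 h was -0.05 ± 0.13 (edgeR adjusted p = 0.793), which changed sign without control replicate 2 (0.07) and under library size alone (0.30).

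Ndufv1, Ndufs3 and Ndufs7 were lower at 6 h than in both control libraries without passing the test. Ndufv1, which binds FMN and NADH, had a 6 h log2 fold change of -0.37 ± 0.13 (edgeR adjusted p = 0.0601). Ndufs3 had -0.37 ± 0.14 (edgeR adjusted p = 0.0776), and 55% of its transcript's 31-base words also occur in transcripts of other genes. Ndufs7, which carries the last cluster before ubiquinone, had -0.31 ± 0.15 (edgeR adjusted p = 0.144), and its value under library size alone was 0.04.

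The accessory subunits surround the core and are needed for assembly or stability. Of 28 tested, 18 were called lower at 6 h and 1 at 3 h, with medians of -0.23 at 3 h and -0.48 at 6 h. Ndufa11, a membrane-arm subunit (gene at chr17:56717767-56722141, plus strand, GRCm38), had 132.9 and 127.3 CPM in control, 109.2 and 101.2 after 3 h, and 66.9 and 72.6 after 6 h. The 3 groups stood apart in that order. Its log2 fold change was -0.31 ± 0.12 at 3 h (edgeR adjusted p = 0.151) and -0.90 ± 0.12 at 6 h (edgeR adjusted p = 0.00161).

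Ndufb2, another membrane-arm subunit, had 43.0 and 39.7 CPM in control, 34.3 and 32.2 after 3 h, and 26.4 and 24.4 after 6 h, and fell by 0.70 on the log2 scale at 6 h (edgeR adjusted p = 0.00793). Ndufa5, a subunit of the peripheral arm, had 37.9 and 33.5 CPM in control, 26.9 and 29.5 after 3 h, and 23.7 and 20.5 after 6 h, and fell by 0.69 (edgeR adjusted p = 0.0124). In both genes the 6 h libraries were the lowest and did not overlap with the others.

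Ndufa12 was the member called at 3 h. It had 1591 and 1584 CPM in control, 1070 and 1262 after 3 h, and 1152 and 1112 after 6 h. Both treated groups lay below control and overlapped each other. The log2 fold change was -0.45 ± 0.10 at 3 h (edgeR adjusted p = 0.049) and -0.49 ± 0.10 at 6 h (edgeR adjusted p = 0.0104). The 3 h call was lost in every fit that left out 1 library (adjusted p from 0.0572 to 0.23) and in the fit with a replicate block (edgeR adjusted p = 0.067).

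Not every accessory subunit shared the pattern. Ndufa13, also known as a cell death regulator, had 34.97 and 32.26 CPM in control, 31.01 and 33.69 after 3 h, and 30.95 and 34.58 after 6 h, so its groups overlapped. Ndufa10 and Ndufa8 differed between the control libraries, with 43.9 and 22.6 CPM for Ndufa10 and 248.8 and 137.8 for Ndufa8. Without control replicate 1 Ndufa10 was called higher at both 3 h (log2 fold change 0.90) and 6 h (0.70). Without control replicate 2 Ndufa8 was called lower at 3 h (-0.95). These 3 genes were picked after their values were seen.

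**Figure D4:**
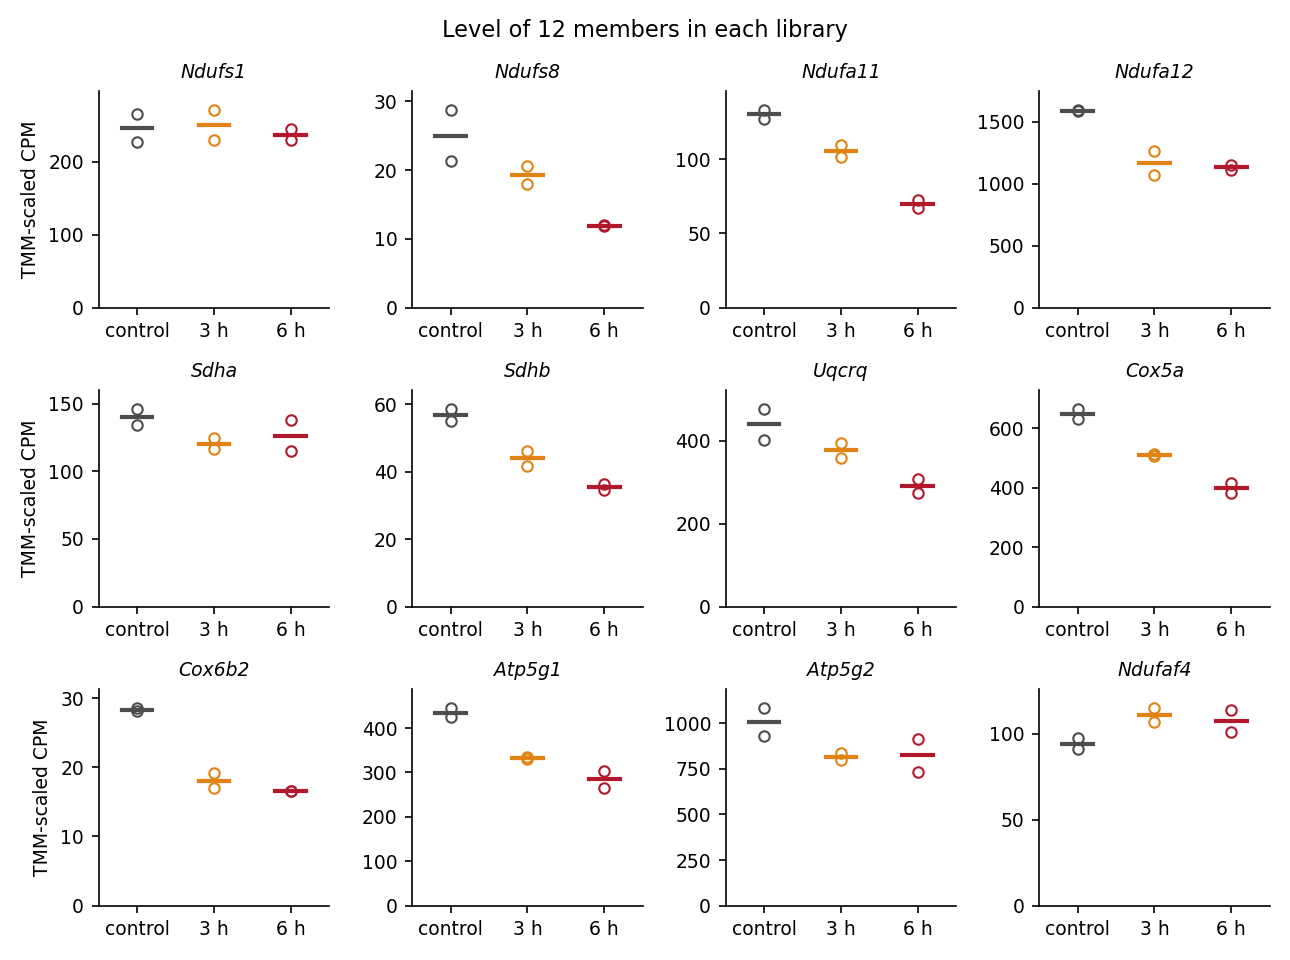
TMM-scaled CPM of 12 members in each library (circles; bars are means of 2 libraries), each panel on its own axis from 0. Ndufs8, Ndufa11, Sdhb, Uqcrq, Cox5a and Atp5g1 step down from control to 3 h to 6 h without overlap, while the groups of Ndufs1 overlap and Ndufaf4 lies higher in both treated groups.

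The complex I assembly factors, which build the complex and are not part of it, were split. Of 7 tested, 3 were called lower at 6 h and 0 at 3 h, with medians of -0.10 and -0.08. Ndufaf1, which joins early membrane-arm intermediates, had 35.4 and 37.6 CPM in control, 36.8 and 31.2 after 3 h, and 21.9 and 23.9 after 6 h. Control and 3 h overlapped and 6 h was lower, with a log2 fold change of -0.67 ± 0.15 (edgeR adjusted p = 0.0129). Ndufaf7, an arginine methyltransferase, fell by 0.58 at 6 h (edgeR adjusted p = 0.0483), and Ndufaf2 by 0.55 (edgeR adjusted p = 0.0178).

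For Ndufaf2 81.1% of the transcript's 31-base words occur in transcripts of other genes, so its counts are uncertain. Ndufaf4, which works with Ndufaf3 in forming the peripheral arm, had 97.5 and 91.4 CPM in control, 115 and 106.9 after 3 h, and 101.3 and 113.7 after 6 h. Both treated groups lay above control, with log2 fold changes of 0.23 ± 0.12 after 3 h and 0.19 ± 0.12 after 6 h (edgeR adjusted p = 0.276 and 0.283). Ndufaf3, Ndufaf5 and Ndufaf6 had log2 fold changes from -0.08 to 0.06 at 6 h with overlapping groups. Among the 8 listed complex I assembly genes outside the name rule 0 were called at 6 h by edgeR, and their median was 0.14. At an unadjusted p under 0.05 the number was 2, beside 5279 of the 12755 tested genes.

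Complex II, succinate dehydrogenase, is also an enzyme of the citric acid cycle and has no subunit from the mitochondrial chromosome. Of its 4 genes 2 were called lower at 6 h and 0 at 3 h, with medians of -0.29 at 3 h and -0.32 at 6 h. Without overlap with control, 4 were lower at 3 h and 3 at 6 h, beside 24.8% and 31.2% of all tested genes. Sdhb, the iron-sulphur subunit, had 54.9 and 58.5 CPM in control, 46.2 and 41.8 after 3 h, and 36.2 and 34.5 after 6 h. Its groups did not overlap, and the log2 fold change at 6 h was -0.68 ± 0.13 (edgeR adjusted p = 0.00764).

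Sdhc, a membrane anchor, had 113.7 and 110.9 CPM in control, 87.8 and 84.1 after 3 h, and 84.4 and 76.0 after 6 h. It was below control in both treated groups, which overlapped each other, and fell by 0.49 at 6 h (edgeR adjusted p = 0.0174).

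Sdha, the flavoprotein that oxidises succinate, had 134.4 and 145.8 CPM in control, 116.5 and 124.5 after 3 h, and 115.3 and 137.5 after 6 h. The 6 h libraries overlapped with control and the log2 fold change was -0.15 ± 0.13 (edgeR adjusted p = 0.419). Sdhd, the other anchor, had 33.6 and 35.4 CPM in control, 31.1 and 29.8 after 3 h, and 33.5 and 32.6 after 6 h, with a log2 fold change of -0.06 ± 0.14 (edgeR adjusted p = 0.763). Under library size alone both values were above 0 (0.21 for Sdha and 0.29 for Sdhd). Whether the 4 genes differ from each other in their change was not tested.

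Complex III, the cytochrome bc1 complex, had 6 of 8 tested genes called lower at 6 h and 0 at 3 h, with medians of -0.18 and -0.41. Its 8 genes did not overlap with control at 6 h, and 8 of 8 were lower, beside 31.2% of all tested genes. Uqcrq, a small supernumerary subunit, had 475.6 and 402.5 CPM in control, 394.5 and 358.2 after 3 h, and 306.4 and 273.6 after 6 h, falling in that order without overlap. The log2 fold change at 6 h was -0.60 ± 0.12 (edgeR adjusted p = 0.00874).

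The core proteins Uqcrc1 and Uqcrc2 face the matrix and carry no redox centre. Uqcrc1 had 128.9 and 114.6 CPM in control, 106.9 and 92.8 after 3 h, and 95.9 and 75.1 after 6 h, and fell by 0.51 (edgeR adjusted p = 0.0369). Uqcrc2 had 148.6 and 174.5 CPM in control, 124.9 and 131.4 after 3 h, and 116.3 and 119.6 after 6 h, and fell by 0.45 (edgeR adjusted p = 0.0239). In both, all treated libraries lay below both control libraries. Uqcrfs1, the Rieske iron-sulphur protein, was called lower as well, by 0.36 (edgeR adjusted p = 0.0405), while Uqcr10 and Uqcr11 were not called.

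Complex IV, cytochrome c oxidase, takes its catalytic subunits from the mitochondrial chromosome, so its nuclear members are the supernumerary subunits, some of which come as tissue isoforms. Ndufa4, named as a complex I gene but now placed in complex IV, is counted here, together with its relative Ndufa4l2 and the supercomplex factor Cox7a2l. Of 17 tested members 12 were called lower at 6 h and 0 at 3 h, with medians of -0.23 and -0.42. Cox5a, a subunit on the matrix side (gene at chr9:57521274-57532426, plus strand, GRCm38), had 630.9 and 663.4 CPM in control, 511.5 and 506.3 after 3 h, and 414.0 and 380.9 after 6 h. The groups stepped down without overlap, and the log2 fold change at 6 h was -0.70 ± 0.10 (edgeR adjusted p = 0.00215).

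The isoform pairs of complex IV held some of the largest and some of the smallest changes. Cox6a2, the heart and skeletal muscle form of subunit VIa, had 20 and 35 counts in control, 6 and 19 after 3 h, and 0 and 0 after 6 h. Against a floor of 3 counts per library its control mean of 2.88 CPM was at least 26.9-fold higher than at 6 h (edgeR adjusted p = 0.00521), and its lowest control library, at 1.48 CPM, at least 12.9-fold higher. The general form Cox6a1 had 531.5 and 521.9 CPM in control, 446.7 and 441.6 after 3 h, and 420.7 and 396.0 after 6 h, and fell by 0.37 (edgeR adjusted p = 0.0218). An exon of Cox6a2 overlaps Itgad on the opposite strand, and the sources used here do not say whether counting used the strand.

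Cox6b2, the testis form of subunit VIb, had 28.5 and 28.1 CPM in control, 17.0 and 19.2 after 3 h, and 16.5 and 16.6 after 6 h. Treated libraries lay below control already at 3 h (log2 fold change -0.65 ± 0.16, edgeR adjusted p = 0.0532), and at 6 h it fell by 0.77 (edgeR adjusted p = 0.00804). Cox6b1, the general form, had 280.8 and 296.2 CPM in control, 221.2 and 269.2 after 3 h, and 230.7 and 198.9 after 6 h. It fell by 0.42 at 6 h (edgeR adjusted p = 0.0406), a call lost under the replicate block (edgeR adjusted p = 0.0562).

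Cox4i1, the general form of subunit IV, had 384.4 and 378.9 CPM in control, 336.7 and 349.8 after 3 h, and 306.0 and 288.1 after 6 h. It fell by 0.36 (edgeR adjusted p = 0.0256), while its hypoxia- and lung-associated counterpart Cox4i2 was not tested. Cox8a fell by 0.42 (edgeR adjusted p = 0.0138), and Cox8c was not tested.

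Cox7a2, the general form of subunit VIIa, had 95.1 and 90.7 CPM in control, 78.9 and 85.4 after 3 h, and 67.1 and 64.5 after 6 h. It fell by 0.50 (edgeR adjusted p = 0.0165), in steps that did not overlap. Cox7a2l, which joins complexes III and IV into supercomplexes, had 117.2 and 99.2 CPM in control, 116.4 and 99.6 after 3 h, and 96.0 and 100 after 6 h. Its groups overlapped, with a log2 fold change of -0.14 ± 0.14 at 6 h (edgeR adjusted p = 0.46), -0.02 without control replicate 1 and 0.21 under library size alone.

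The muscle form Cox7a1 stood between 1.47 and 2.22 CPM in all 6 libraries, with a log2 fold change of -0.17 ± 0.48 (edgeR adjusted p = 0.822). Its sign changed without control replicate 1 (0.18) and under library size alone (0.18). Ndufa4 had 285.0 and 224.3 CPM in control, 240.4 and 240.4 after 3 h, and 178.0 and 195.7 after 6 h. It fell by 0.45 at 6 h (edgeR adjusted p = 0.0358), and its value was -0.27 (edgeR adjusted p = 0.18) without control replicate 1. Ndufa4l2, known as a hypoxia target, had at most 22 counts in any library and a log2 fold change of -1.31 ± 0.96 (edgeR adjusted p = 0.339), which ran from -2.01 without 6 h replicate 2 to -0.44 without control replicate 2.

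Cox7b, the general form of subunit VIIb, had 205.9 and 186.2 CPM in control, 173.7 and 172.2 after 3 h, and 151.1 and 156.5 after 6 h. It fell by 0.35 at 6 h (edgeR adjusted p = 0.0406), with groups that did not overlap. Its relative Cox7b2 went the other way in level, with 0.222 and 0.611 CPM in control, 0.323 and 0.289 after 3 h, and 0.924 and 1.34 after 6 h, on at most 35 counts. The 6 h libraries lay above the others, but the log2 fold change of 1.52 ± 0.80 did not pass the test (edgeR adjusted p = 0.185). This pair was picked after its values were seen.

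ATP synthase had 9 of 17 tested members called lower at 6 h and 0 at 3 h, with medians of -0.23 and -0.45. The calls were spread over its parts. In the peripheral stalk, which holds the catalytic head still, 4 of 4 were called, with a median of -0.56. In the catalytic F1 head 3 of 5 were called, in the rotating c-ring 2 of 3, and among the small membrane subunits 0 of 3.

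Atp5f1, subunit b of the stalk, had 161.8 and 169.7 CPM in control, 139.2 and 125.0 after 3 h, and 109.5 and 110.9 after 6 h. The log2 fold change at 6 h was -0.59 ± 0.11 (edgeR adjusted p = 0.00688). Atp5h, subunit d of the stalk, had 705.1 and 786.8 CPM in control, 579.3 and 654.8 after 3 h, and 532.0 and 468.2 after 6 h, and fell by 0.58 (edgeR adjusted p = 0.00819). In both genes the 3 groups did not overlap.

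The c-ring subunit is encoded by 3 genes that give the same mature protein with different import signals. Atp5g1 had 444.7 and 425.2 CPM in control, 334.7 and 330.1 after 3 h, and 304.2 and 265.0 after 6 h, and fell by 0.61 (edgeR adjusted p = 0.00505). Atp5g3 had 1434 and 1303 CPM in control, 1139 and 994.3 after 3 h, and 1037 and 917.3 after 6 h, and fell by 0.49 (edgeR adjusted p = 0.0144). Both lay below control in all treated libraries.

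Atp5g2 had 931.9 and 1082 CPM in control, 796.3 and 838.4 after 3 h, and 916.1 and 731.8 after 6 h. It was lower than control at both times, but the 6 h libraries stood apart from each other, and the log2 fold change was -0.29 ± 0.13 (edgeR adjusted p = 0.129), -0.14 without 6 h replicate 2 and 0.07 under library size alone. Atp5s and Atp5sl, which carry the name without being subunits of the core enzyme, had log2 fold changes of -0.07 and 0.08 at 6 h with overlapping groups.

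Between 6 h and 3 h, 1 member was called, Ndufa11, which was lower at 6 h by -0.59 ± 0.12 (edgeR adjusted p = 0.0489). Among all tested genes 1.18% were called lower and 0.455% higher between these times. The call was lost under RLE size factors, under library size alone, without mitochondrially encoded genes, under the replicate block (edgeR adjusted p = 0.0773) and in each of the 4 fits that left out a treated library. The median over the 88 members was -0.21, beside 0.01 over all tested genes, and 59 members were lower in both 6 h libraries than in both 3 h libraries, against 26.9% of all tested genes.

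By complex the medians between 6 h and 3 h were -0.10 for complex I core, -0.23 for complex I accessory, -0.18 for complex I assembly, -0.02 for complex II, -0.23 for complex III, -0.21 for complex IV and -0.21 for ATP synthase. In summed level, complex II stood at 81.7% ± 0.311 of control at 3 h and 80.0% ± 2.28 at 6 h (SD, n = 2), and complex III at 87.0% ± 3.44 and 72.4% ± 2.5. The complex II libraries of 3 h and 6 h overlapped, and those of complex III did not. Whether complexes differ in their course was not tested.

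Other genes of the pathway were called in both directions. Taken in either direction, the shares called were near those of all tested genes. Of 66 tested assembly factors, electron carriers, ubiquinone synthesis genes and regulators, 12 were called lower and 5 higher at 6 h, and 1 lower (Cycs) and 1 higher (Sdhaf1) at 3 h. In either direction this was 25.8% at 6 h and 3.03% at 3 h, beside 29% and 4.9% of all tested genes. Over all tested genes 14.3% were called lower and 14.8% higher at 6 h, and 1.30% and 3.60% at 3 h. By direction, the 6 h calls of this list leaned to lower, while those of all tested genes were split nearly evenly. The median of the 66 genes was -0.08 at 3 h and 0.01 at 6 h. Cycs, cytochrome c, had 1128 and 1242 CPM in control, 856.9 and 879.8 after 3 h, and 726.3 and 781.3 after 6 h. It fell by 0.45 at 3 h (edgeR adjusted p = 0.04) and by 0.65 at 6 h (edgeR adjusted p = 0.00288), without overlap between groups.

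Cyc1, the cytochrome c1 subunit of complex III that the name rule leaves out, had 140.8 and 174.0 CPM in control, 126.0 and 110.9 after 3 h, and 110.8 and 102.4 after 6 h. It fell by 0.56 at 6 h (edgeR adjusted p = 0.0186), a call lost without control replicate 2 (-0.40, adjusted p = 0.0778) and without either 6 h library (adjusted p = 0.0655 and 0.119). Among ubiquinone synthesis genes, Coq2, which attaches the isoprenoid tail, had 13.7 and 11.9 CPM in control, 18.1 and 22.1 after 3 h, and 24.4 and 26.1 after 6 h. It rose by 0.97 at 6 h (edgeR adjusted p = 0.00593), with each group above the last.

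Coq4 had 3.85 and 7.21 CPM in control, 9.04 and 9.65 after 3 h, and 11.1 and 12.3 after 6 h, and rose by 1.12 (edgeR adjusted p = 0.0238). Without control replicate 1 its value was 0.69 (edgeR adjusted p = 0.121). Coa4, a complex IV assembly factor, had 7.63 and 5.25 CPM in control, 9.95 and 8.15 after 3 h, and 12.1 and 11.5 after 6 h, and rose by 0.85 (edgeR adjusted p = 0.0333). Without control replicate 2 its value was 0.63 (edgeR adjusted p = 0.137).

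Of 14 tested genes listed as acting on respiratory gene expression or on the mitochondrial chromosome, 6 were called lower at 6 h and 0 higher. Over all tested genes 14.3% were called lower and 14.8% higher. The share of 42.1% called lower among genes with at least 100 CPM applies, of the called regulators, to Slirp and Tfam. The others, Tfb2m, Nrf1, Gabpb1 and Pprc1, lay below that level, with control means of 24.51, 26.58, 60.04 and 72.91 CPM. Tfb2m, a factor for transcription of the mitochondrial chromosome, had 21.4 and 27.6 CPM in control, 13.7 and 16.0 after 3 h, and 7.39 and 7.71 after 6 h. The groups did not overlap, and the log2 fold change at 6 h was -1.69 ± 0.20 (edgeR adjusted p = 0.00106). Nrf1, whose letters were counted in the promoters, had 22.01 and 31.16 CPM in control, 22.4 and 27.2 after 3 h, and 13.8 and 16.8 after 6 h, and fell by 0.79 (edgeR adjusted p = 0.0251), a call lost without control replicate 2 (edgeR adjusted p = 0.146). The relation between these genes and the members was not tested.

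The 13 respiratory subunits encoded on the mitochondrial chromosome were lower than the nuclear members in median, with 10 called lower at 3 h and 12 at 6 h and medians of -0.59 and -0.97. By complex their medians at 6 h were -1.28 for complex I (7 genes), -0.88 for complex III (1 gene), -0.72 for complex IV (3 genes) and -0.94 for ATP synthase (2 genes). The nuclear members of the same complexes, assembly factors aside, had medians between -0.37 and -0.48. Leaving the mitochondrially encoded genes out of the fit left the same 52 members called lower at 6 h. Genes for other large assemblies gave values on both sides of the members: 69 of 80 cytoplasmic ribosomal protein genes were called lower at 6 h (median -0.56), and 35 of 76 mitochondrial ribosomal protein genes lower and 4 higher (median -0.36).

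**Figure D5:**
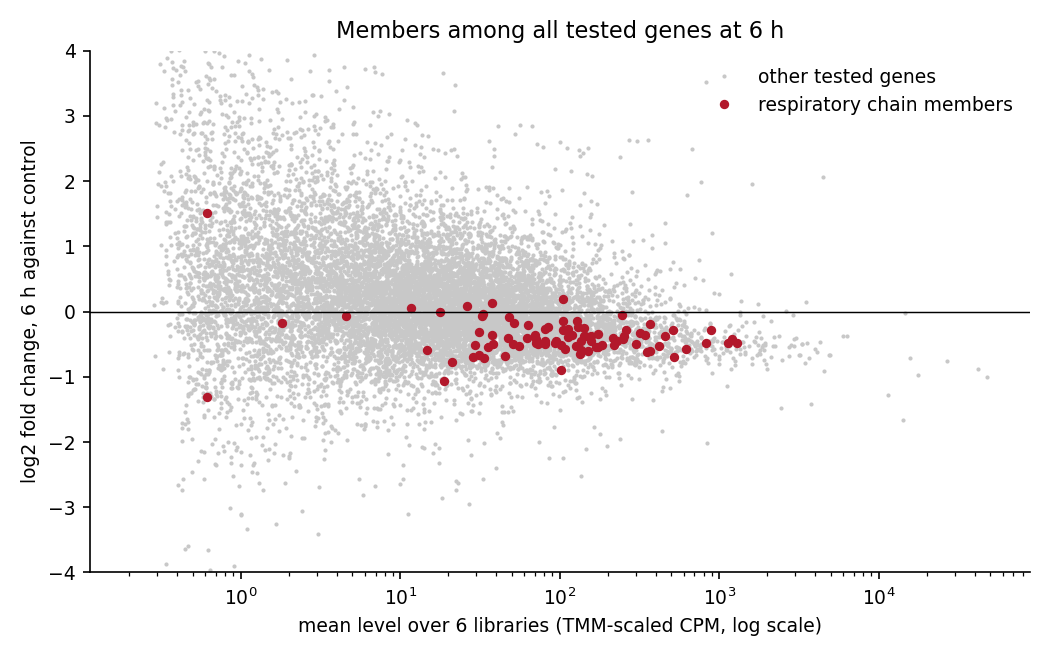
Log2 fold change at 6 h against control over the mean TMM-scaled CPM of 6 libraries (log axis) for 87 members (red) among the other tested genes (grey); 172 genes beyond 4 in either direction and Cox6a2 are not shown. Members lie mostly below 0 near 100 CPM, in a range where other genes also lie below 0.

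Across all tested genes, which are not independent replicates, Spearman's rho between the mean CPM and the log2 fold change at 6 h was -0.312, and across the members it was -0.056. Respiratory transcripts are short, with a median of 944 bases for the longest annotated transcript against 3069 bases over all tested genes. The rho of length and change was 0.102 over all tested genes and -0.020 over the members. Many members share sequence with other genes' transcripts: 29 tested members share over 10% of their 31-base words with other genes' transcripts, and 19 of these were called lower at 6 h (median -0.45). Of the 26 that share none, 13 were called lower (median -0.39).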

How the data were processed

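The authors deposited 1 table of raw read counts per gene for each of the 6 libraries. The reads were assigned to build mm10, per the submitters' processing notes; the aligner, annotation and use of strand are not given in the sources used here. RNA was extracted with TRIzol and libraries were pooled with sample barcodes, per the labels' protocols. Genes were filtered by edgeR's filterByExpr (at least 10 counts, 15 in total) and the deposited counts were tested with edgeR 4.0.16 (R 4.3.3) by glmQLFit and glmQLFTest, with TMM scaling, all 6 libraries in 1 fit and no block, leaving 3 residual degrees of freedom. P-values were adjusted over all 12755 tested genes in each of 3 comparisons. Standard errors were computed from the fitted dispersions. The fit was tested on simulated data, with 200 genes per run, drawn from all tested genes, changed by 0.5 or 1 on the log2 scale. Fitted changes were close to the true ones on average, most changes of 0.5 were missed, and false calls were above their nominal share. In the data 3703 genes were called at 6 h, far more than the simulation changed. The shares missed and falsely called among the members may therefore differ from the simulated ones. Totals of 9385447 to 27351079 counts per library set the precision, and the floor of 3 counts covers counting error only. With 2 libraries against 2 an exact permutation test cannot go below p = 0.333, so none was used. Members and lists were chosen with earlier results of these data known, and so was the rule for named genes: all core and complex II genes, the 3 largest called falls and rises per other complex at 6 h, calls in the other comparisons, isoform sets, and the 3 largest called rises and falls of the pathway list with Cyc1 and Cycs; others are given to complete a group, and 1 gene that the rule takes is not reported here. Alternatives were RLE, library size alone, other filters, DESeq2 1.42.0, limma-voom (limma 3.58.1), a replicate block, fewer libraries and p under 0.01. Gene positions and transcripts are from GENCODE M21, promoters from RefSeq. The labels do not say whether same-numbered libraries share a culture or day.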

Additional observations from a re-analysis of the deposited data

Results flagged for a closer look

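Ndufa11, the complex I accessory subunit, is listed because its change at 6 h differed from its change at 3 h by a direct test. The difference was -0.593 on the log2 scale (edgeR adjusted p = 0.0489), with both 6 h libraries below both 3 h libraries. It was chosen among 88 members, and its call was lost under several alternatives, with adjusted p from 0.0303 to 0.272 when 1 library was left out.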

How the results depend on the processing

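Depth, 2 libraries a group and the choice of scaling limit these results. A fit without 1 library leaves its group with 1, which is assumed to vary like the others.

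Member calls at 6 h numbered 15 at an adjusted p under 0.01, 5 under library size alone, and 7 to 41 without 1 library. Other settings gave 39 to 61 (52 as reported). With the replicate block, which the labels do not support as a pairing (correlations of same-numbered deviations 0.0942, -0.0243 and 0.0172 over all genes, and 0.109, 0.514 and -0.199 over members, for control with 3 h, control with 6 h and 3 h with 6 h), 48 were called, 47 of them among the 52, while the counts at 3 h and between 6 h and 3 h were 0, and 126 of all tested genes were called between 6 h and 3 h.

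Member calls at 3 h numbered 2 under RLE, 9 with no filter, 3 at a minimum count of 50, 11 under DESeq2, 0 with only the libraries compared or p under 0.01, and 0 to 1 without 1 library. Between 6 h and 3 h they numbered 0 under RLE, library size alone, no mitochondrial genes or p under 0.01, 4 with no filter or DESeq2, and 0 to 3 without 1 library.

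Over all tested genes, calls at 3 h were 1373 under library size alone (1316 higher, against 459 of 625 as reported), 1816 with no filter, 1447 under DESeq2, 218 with only the libraries compared, 133 at p under 0.01 and 108 to 1033 without 1 library. At 6 h they were 1572 at p under 0.01 and 1312 to 3578 without 1 library. Between 6 h and 3 h they were 1063 with no filter, 688 under DESeq2, 508 under limma-voom, 563 with only the libraries compared, 43 at p under 0.01 and 14 to 595 without 1 library. Under library size alone 93 of 214 calls between 6 h and 3 h were lower, against 151 of 209.

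Under library size alone the medians were 0.0064 (3 h), -0.0687 (6 h) and -0.081 (6 h against 3 h) for members, and at 6 h -0.10 for ATP synthase, -0.13, -0.0093 and 0.28 for complex I accessory, core and assembly, 0.0399 for complex II, -0.0578 for III and -0.0682 for IV; the shift of all genes accounts for the difference by construction. The 6 h median of complex IV was -0.44 under RLE and DESeq2 and -0.39 at a minimum count of 50, as was that of the members at that count (-0.39).

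Without 1 library the member medians ran from -0.46 to -0.38 at 6 h, -0.23 to -0.20 at 3 h and -0.23 to -0.16 between 6 h and 3 h. At 6 h those of the complexes ran from -0.47 to -0.32 (ATP synthase), -0.48 to -0.39 (accessory), -0.14 to -0.0054 (assembly), -0.45 to -0.28 (core), -0.35 to -0.29 (II), -0.45 to -0.38 (III) and -0.46 to -0.35 (IV).

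Among the genes that the naming rule takes, those reported here whose sign turned under library size alone were Atp5g2 (0.066), Cox7a1 (0.18), Cox7a2l (0.21), Ndufs1 (0.30), Ndufs7 (0.0422), Sdha (0.21) and Sdhd (0.29), none called; Cox7a1 also turned without control replicate 1 (range without 1 library -0.42 to 0.18) and Ndufs1 without control replicate 2 (-0.16 to 0.0659).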
